A study of Mus musculus with 7 samples.

Results

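Transcripts of 10 transcription factor genes of early B-cell specification and commitment were described in B-cell precursor (BCP) cells from Eμ-Ret mice before and after the onset of leukemia. The genes were Pax5, Ebf1, Foxo1, Bach2, Pou2af1, Irf4, Irf8, Lef1, Myb and Bcl11a. They were chosen by name, without the E protein, Ikaros and ETS families, and are 10 of the 24341 genes in the deposited table. The choice was made with earlier results of these data known, and the study had reported lower Pax5 and Ebf1 in leukemic cells. All 10 were among the 10541 genes tested.

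All mice were Eμ-Ret hemizygotes on a BALB/c background, so a Ret fusion transgene under the control of the IgH enhancer was present in both groups, and no transgene-negative sample was included. The 4 preleukemic samples were taken from young, healthy mice, and the 3 leukemic samples from moribund mice with overt disease. Per the labels, BCP cells were sorted from spleen in both groups, and RNA was sequenced as stranded mRNA libraries. For culture experiments the study states that leukemic spleen cells were in most cases used unenriched, so equal purity of the groups is not known here. The ages of the mice were not given in the sources used here, and age cannot be told apart from disease state. Values are FPKM (fragment numbers divided by transcript length and by library size), and the low values imply between 13.6 and 16.0 M fragments per sample.

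B cells arise from lymphoid progenitors in steps that are set by transcription factors. Ebf1 and Foxo1 act early and switch on B-lineage genes, among them Pax5, which commits the cell by activating B-cell genes and silencing genes of other lineages. Irf4 and Irf8 act at the step at which precursors leave the cycle and rearrange light chain genes, Lef1 is a nuclear partner of the Wnt pathway in proliferating pro-B cells, and Bach2 holds back the plasma cell and myeloid programs. Myb and Bcl11a are needed for early lymphoid progenitors, and Pou2af1 encodes a B-cell coactivator that binds with octamer factors.

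Sequences upstream of the 4 genes that passed the test below are shown because their transcripts were lower together, and because 2 of them hold a motif of a factor discussed here. Each is the 250 bases before a RefSeq start on GRCm38.p6, in the direction of transcription. The windows are chr4:44710695-44710944 (minus strand) for Pax5, chr11:44617850-44618099 (plus strand) for Ebf1, chr3:52268087-52268336 (plus strand) for Foxo1 and chr10:21160985-21161234 (minus strand) for Myb. The bases after the start were found in the gene's annotated transcripts for Ebf1, Foxo1 and Myb, but not for Pax5. The Pax5 window also does not adjoin the measured gene, which ends at 44710440. Capitals mark a match to the motif for interferon regulatory factors in the Ebf1 window and 2 overlapping matches to the Ebf1 motif in the Foxo1 window.
Pax5: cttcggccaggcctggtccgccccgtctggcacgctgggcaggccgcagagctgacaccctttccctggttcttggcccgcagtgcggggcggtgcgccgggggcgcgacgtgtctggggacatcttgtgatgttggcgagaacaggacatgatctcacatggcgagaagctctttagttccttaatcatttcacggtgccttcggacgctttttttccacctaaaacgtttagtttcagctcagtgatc
Ebf1: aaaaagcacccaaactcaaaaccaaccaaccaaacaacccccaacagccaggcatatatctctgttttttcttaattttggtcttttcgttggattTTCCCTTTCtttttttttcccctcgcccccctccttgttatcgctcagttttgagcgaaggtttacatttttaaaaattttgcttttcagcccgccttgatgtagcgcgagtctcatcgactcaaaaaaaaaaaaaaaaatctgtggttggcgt
Foxo1: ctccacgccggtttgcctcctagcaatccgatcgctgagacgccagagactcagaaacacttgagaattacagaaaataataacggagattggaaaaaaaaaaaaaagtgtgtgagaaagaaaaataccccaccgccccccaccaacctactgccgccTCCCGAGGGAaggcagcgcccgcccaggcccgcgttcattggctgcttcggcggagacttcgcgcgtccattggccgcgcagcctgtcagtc
Myb: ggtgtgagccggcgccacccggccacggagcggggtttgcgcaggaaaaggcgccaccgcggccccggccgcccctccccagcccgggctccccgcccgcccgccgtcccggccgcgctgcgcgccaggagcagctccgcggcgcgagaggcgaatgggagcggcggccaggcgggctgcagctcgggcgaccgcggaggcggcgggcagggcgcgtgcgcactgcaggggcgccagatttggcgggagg

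The motifs were searched on both strands in the 15 such windows of the 10 genes and in 32851 windows of all genes. The Ebf1 motif TCCCNNGGG was found in 5.60% of all windows and, among the 10 genes, in that of Foxo1. The interferon regulatory factor motif GAAANNGAA was found in 7.13% of all windows and, among the 10 genes, in 1 window of Ebf1. The E-box CAGCTG was found in 13.0% of all windows and in 1 window of Lef1. The octamer ATGCAAAT (1.60% of all windows), the Foxo motif TGTTTAC (3.17%) and the Tcf/Lef motif CTTTGAT (3.21%) had no match in the 15 windows. The windows differed in base composition, with 81.2% G or C for Myb, 58.8% for Pax5, 56.0% for Foxo1 and 40.0% for Ebf1. A match describes the letters of the window and not binding.

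Pax5, Ebf1, Foxo1 and Myb were lower in leukemic than in preleukemic BCP cells, and none of the 10 genes was called higher. The 4 genes were at 58.3%, 61.3%, 52.9% and 72.7% of their preleukemic mean. A gene was called where limma, fitted to log2(FPKM + 1) of all tested genes, gave a Benjamini-Hochberg adjusted p under 0.05. By this rule 4 of 10 genes were called lower, against 6.26% of all genes tested, and 0 of 10 were called higher, against 8.47%. At an unadjusted p under 0.05 the counts were 5 lower and 0 higher, against 17.5% and 16.5% of all genes. The log2 fold change was below 0 for 9 of 10 genes, with a median of -0.54, against -0.02 for all genes. The leukemic range lay wholly below the preleukemic range for 5 of 10 genes, against 17.1% of all genes (32.0% had no overlap in either direction). The count of genes called lower was 2 without preleukemic replicate 2, 1 without preleukemic replicate 3 and 1 without preleukemic replicate 4, against 1.4%, 0.674% and 0.398% of all genes.

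**Figure D1:**
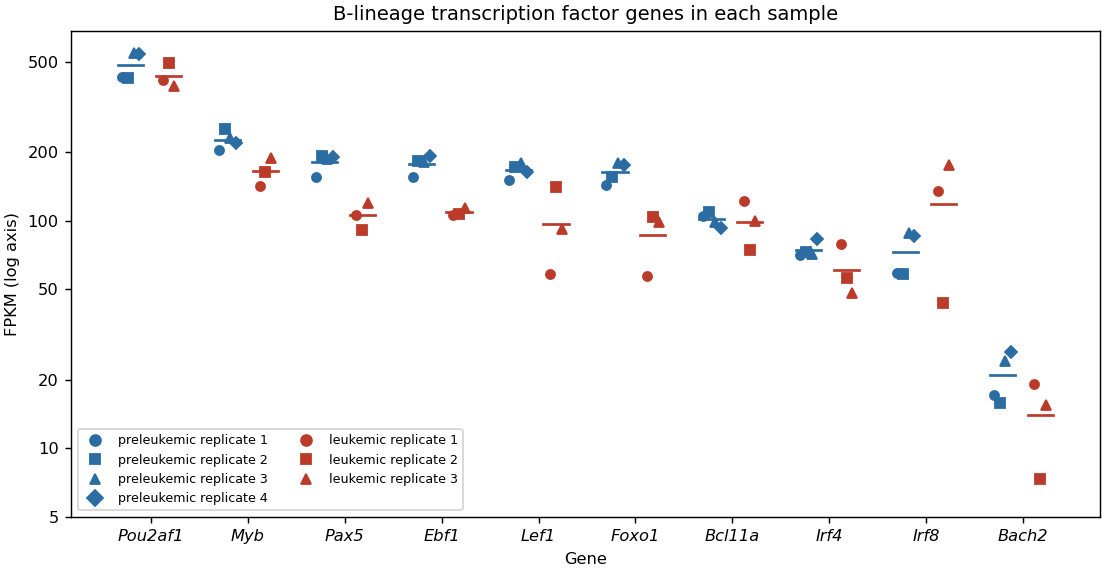
FPKM (log axis) of the 10 genes in each of the 7 samples, with 1 symbol per replicate and a line at the mean of each group (blue preleukemic, red leukemic). Pax5, Ebf1, Foxo1, Lef1 and Myb have all 3 leukemic samples below all 4 preleukemic samples, and Irf8 has 2 leukemic samples above and 1 below.

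Ebf1, the pioneer factor of the B lineage, showed the tightest difference. It had 156, 183, 182 and 193 FPKM in preleukemic replicates 1 to 4, and 107, 108 and 114 FPKM in leukemic replicates 1 to 3. The groups did not overlap, and the leukemic samples lay within 1.07-fold of each other. The mean was 179 ± 15.7 (SD, n = 4) against 110 ± 4.30 (SD, n = 3), a log2 fold change of -0.70 with a standard error of 0.09 (limma adjusted p = 0.0095). Ebf1 lies on chromosome 11 from 44618100 to 45008096 (GRCm38) and remained called in 7 of 7 fits that left out 1 sample.

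Pax5, the commitment factor, was at 156, 193, 186 and 191 FPKM in preleukemic replicates 1 to 4 and at 106, 91.3 and 120.4 FPKM in leukemic replicates 1 to 3. No leukemic sample reached the lowest preleukemic sample, which was replicate 1. The mean was 182 ± 17.4 (SD, n = 4) against 106 ± 14.6 (SD, n = 3), and the log2 fold change was -0.78 with a standard error of 0.12 (limma adjusted p = 0.0134). Pax5 lies on chromosome 4 from 44531506 to 44710440. The call was kept in 5 of 7 fits, and was lost without preleukemic replicate 3 (adjusted p = 0.051) or 4 (adjusted p = 0.055). Pax5 and Ebf1 stood at nearly equal levels, with ratios of 0.997, 1.06, 1.02 and 0.989 in the preleukemic samples and 0.993, 0.848 and 1.05 in the leukemic samples. The log2 ratio differed by -0.08 between the groups (two-sided exact permutation test over 35 labelings, p = 0.371, where the smallest possible p is 0.0286).

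Foxo1, a forkhead factor upstream of the recombinase genes, had 144, 156, 179 and 176 FPKM in preleukemic replicates 1 to 4. The leukemic replicates had 57.2, 104 and 98.6 FPKM, with replicate 1 far below the others. The groups did not overlap, with means of 164 ± 16.9 (SD, n = 4) and 86.6 ± 25.5 (SD, n = 3), and the log2 fold change was -0.95 with a standard error of 0.21 (limma adjusted p = 0.0277). Foxo1 lies on chromosome 3 from 52268337 to 52350109. It was called in 4 of 7 fits, and not without preleukemic replicate 2 (adjusted p = 0.070), 3 (adjusted p = 0.081) or 4 (adjusted p = 0.089).

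Myb, which encodes a factor of hematopoietic progenitors, had 204, 253, 231 and 219.9 FPKM in preleukemic replicates 1 to 4 and 142, 165 and 189 FPKM in leukemic replicates 1 to 3. The groups did not overlap, but their nearest samples were close, and the means were 227 ± 20.7 (SD, n = 4) and 165 ± 23.2 (SD, n = 3). The log2 fold change was -0.46 with a standard error of 0.12 (limma adjusted p = 0.0412), and the call was kept in 1 of 7 fits, that without leukemic replicate 3. It was also lost with no filter on low values (adjusted p = 0.0552) and with no intensity trend (adjusted p = 0.0517), which left 3 of the 10 genes called. Myb lies on chromosome 10 from 21124930 to 21160984.

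Lef1 had no overlap between the groups but was not called. Its values were 152, 173, 179 and 165 FPKM in preleukemic replicates 1 to 4, and 58.4, 141 and 92.4 FPKM in leukemic replicates 1 to 3. Leukemic replicate 2 lay just under the preleukemic range. The log2 fold change was -0.86 with a standard error of 0.26 (limma adjusted p = 0.0651), while without leukemic replicate 2 it was -1.17 (adjusted p = 0.015) and without leukemic replicate 1 it was -0.55 (adjusted p = 0.0781). Lef1 lies on chromosome 3 from 131110297 to 131224357, and its lowest sample was also that of Foxo1.

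The interferon regulatory factors diverged among the leukemic samples. Irf8 had 59.0, 58.4, 88.6 and 85.5 FPKM in preleukemic replicates 1 to 4, and 135, 43.5 and 177 FPKM in leukemic replicates 1 to 3. Leukemic replicates 1 and 3 lay above all preleukemic samples, and leukemic replicate 2 lay below them. The highest leukemic sample was 4.06-fold above the lowest, and the log2 fold change was 0.50 with a standard error of 0.45 (limma adjusted p = 0.459). Without leukemic replicate 2 it was 1.10 (adjusted p = 0.0279), where 8.25% of all genes were called higher, and without leukemic replicate 1 or 3 it was 0.30 or 0.10 (adjusted p = 0.728 and 0.883).

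Irf4, which acts with Irf8 at the exit from the pre-B stage, had 70.7, 72.9, 71.5 and 83.2 FPKM in preleukemic replicates 1 to 4 and 79.0, 55.9 and 48.4 FPKM in leukemic replicates 1 to 3. Leukemic replicate 1 lay within the preleukemic range. The log2 fold change was -0.31 with a standard error of 0.16 (limma adjusted p = 0.219), while without leukemic replicate 1 it was -0.51 (adjusted p = 0.025) and without leukemic replicate 3 it was -0.16 (adjusted p = 0.468). The ratio of Irf4 to Irf8 was 1.20, 1.25, 0.807 and 0.973 in the preleukemic samples and 0.585, 1.29 and 0.274 in the leukemic samples. The log2 ratio differed by -0.82 between the groups (two-sided exact permutation test over 35 labelings, p = 0.257), by -1.38 without leukemic replicate 2 and by -0.26 without leukemic replicate 3. Irf4 lies on chromosome 13 from 30749258 to 30766927 and Irf8 on chromosome 8 from 120736358 to 120756692.

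Bach2, Pou2af1 and Bcl11a overlapped between the groups and were not called. Bach2 had 17.1, 15.9, 24.3 and 26.6 FPKM in preleukemic replicates 1 to 4 and 19.1, 7.31 and 15.5 FPKM in leukemic replicates 1 to 3. It was the lowest of the 10 genes in all 7 samples, and its log2 fold change was -0.62 with a standard error of 0.32 (limma adjusted p = 0.216), or -0.24 without leukemic replicate 2 (adjusted p = 0.485). At 7.31 FPKM in leukemic replicate 2 a transcript of 1500 bases holds 169 fragments, a counting error of 7.70%. Bach2 lies on chromosome 4 from 32417435 to 32586108.

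Pou2af1 had 429.7, 426, 549.6 and 543 FPKM in preleukemic replicates 1 to 4, and 417, 497 and 390.1 FPKM in leukemic replicates 1 to 3. It was the highest of the 10 genes in all 7 samples, and its log2 fold change was -0.16 with a standard error of 0.13 (limma adjusted p = 0.422). Under quantile normalization it was called lower, at -0.43 (adjusted p = 0.0291). Pou2af1 lies on chromosome 9 from 51213690 to 51240079, where the median log2 fold change of tested genes was 0.22 and 1.17% were called lower. The study describes extra copies of chromosome 9 in Eμ-Ret leukemias, and the part of copy number in these values was not tested.

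Bcl11a had 106, 109, 98.8 and 93.0 FPKM in preleukemic replicates 1 to 4 and 122, 74.7 and 100.2 FPKM in leukemic replicates 1 to 3. Leukemic replicate 1 was above and replicate 2 below every preleukemic sample. The log2 fold change was -0.07 with a standard error of 0.16 (limma adjusted p = 0.797), and it turned to 0.12 without leukemic replicate 2. Bcl11a lies on chromosome 11 from 24078056 to 24173558.

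**Figure D2:**
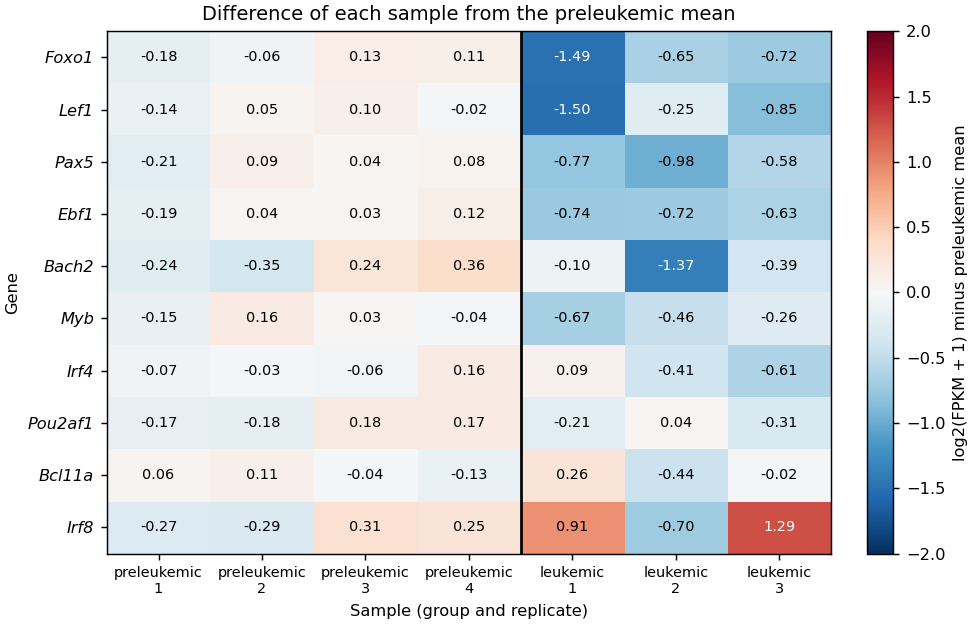
Difference of each sample from the preleukemic mean on the log2(FPKM + 1) scale, with genes in rows and samples in columns (red higher, blue lower). Leukemic replicate 1 is lowest for Foxo1 and Lef1, at -1.49 and -1.50, and leukemic replicate 2 for Bach2, at -1.37.

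The spread among leukemic samples differed by gene. The coefficient of variation was larger in the leukemic than in the preleukemic samples for 8 of 10 genes, against 72.6% of all genes, and Ebf1 and Pou2af1 were the exceptions. Irf8 had the largest leukemic value, 57.5%, and Ebf1 the smallest, 3.92%. No single leukemic sample was lowest throughout: replicate 1 was lowest for Ebf1, Foxo1, Lef1 and Myb, replicate 2 for Pax5, Bach2, Irf8 and Bcl11a, and replicate 3 for Pou2af1 and Irf4. Among preleukemic samples, replicate 1 was lowest for 6 of 10 genes.

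Per length, levels in the preleukemic samples fell into steps whose ranges did not overlap. Pou2af1 was first, Myb followed, then Pax5, Ebf1, Lef1 and Foxo1 with neighbours that overlapped, then Bcl11a, then Irf4 and Irf8, which overlapped, and last Bach2. In the leukemic samples Pou2af1 and Bach2 kept the ends of the order with ranges apart from their neighbours. The neighbours among the other 8 genes all overlapped in range.

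The 5 genes whose profile was most like that of Pax5 were found among 7067 tested genes with a mean of at least 10 FPKM. Likeness was the root mean square difference between log2(FPKM + 1) profiles centred on their means over 7 samples. They were Dock10 (0.0553), Zfp292 (0.0897), Ebf1 (0.0982), Kansl1l (0.102) and Klhl24 (0.110). Dock10, a gene of a guanine nucleotide exchange factor, was at 39.2 ± 3.22 FPKM (SD, n = 4) in preleukemic samples and 23.1 ± 3.63 FPKM (SD, n = 3) in leukemic samples. Myb ranked at position 102, Foxo1 at 1007 and Irf8 at 6639, so of the 10 genes Ebf1 was the nearest to Pax5.

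The scaling between samples bore on these calls. FPKM summed to between 448022 and 471447 in preleukemic and to between 507355 and 539887 in leukemic samples. Over all genes 660 were called lower and 893 higher as deposited, 907 and 754 under quantile normalization, and 2231 and 686 as TPM (each sample rescaled to the same sum). Under quantile normalization 6 of the 10 genes were called lower, against 8.6% of all genes, and as TPM 5 were, against 21.2%. Lef1 joined Pax5, Ebf1, Foxo1 and Myb under both scalings, with an adjusted p of 0.0472 and 0.0231.

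When samples were scaled to Cd79a and Cd79b, which encode the signaling chains of the B-cell receptor, 0 of 10 genes were called by limma in either direction, and 1 was lower and 1 higher at an unadjusted p under 0.05, against 1.85% and 43.9% of all genes. This scaling moved the median of all genes to 0.44, with 109 genes (1.03%) called lower and 2668 (25.3%) higher. Pax5, Ebf1, Foxo1, Lef1 and Bach2 stayed below 0, while Irf4, Pou2af1 and Bcl11a turned above 0 and Myb stood at 0.00. Relative to that median, Foxo1, Lef1, Pax5 and Ebf1 were the genes farthest below. Cd79a is itself activated by Pax5 and Cd79b by Ebf1, and neither passed the test (limma adjusted p = 0.0567 and 0.114), with Cd79a at 1467 ± 179 FPKM (SD, n = 4) in preleukemic and 1051 ± 166 FPKM (SD, n = 3) in leukemic samples. Both had lower means in leukemic samples (log2 fold change -0.48 and -0.44), and Cd79a did not overlap between the groups. The study had reported Cd79a as down-regulated in leukemic cells. Scaling to genes that are themselves lower raises the log2 fold changes of all genes, so the 0 calls do not show an absence of difference.

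**Figure D3:**
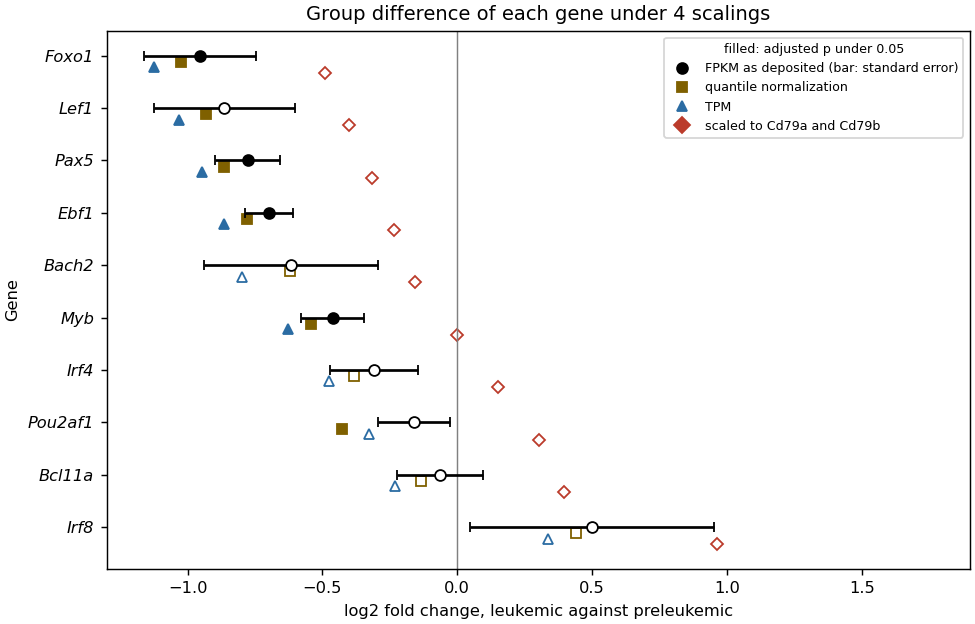
Log2 fold change of each gene, leukemic against preleukemic, for FPKM as deposited (black, bar: standard error) and under 3 other scalings, with filled symbols where the adjusted p is under 0.05. Scaled to Cd79a and Cd79b, no gene is filled, and Myb, Irf4, Pou2af1 and Bcl11a move to or above 0.

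Marker genes of other cells moved with the groups. Of 13 tested red cell precursor genes, 13 were higher in leukemic samples, and the summed level of the list was 421 to 2796 FPKM in preleukemic and 5647 to 26225 FPKM in leukemic samples. For macrophage or monocyte markers 8 of 11 tested genes were higher, with sums of 39.4 to 92.6 and 171 to 392 FPKM. For neutrophil markers 5 of 10 were higher, with sums of 152 to 884 and 1449 to 1806 FPKM. Over all genes tested 8.47% were called higher. A marker that is high in the leukemic group alone can pass the filter through that group, so these counts are not shares of the lists. For T or NK cell markers 0 of 10 were higher and 1, Thy1, was lower, against 6.26% of all genes called lower. No tested dendritic cell gene was called, of 2. Hbb-b1, a beta globin gene, Lyz2, a lysozyme gene of myeloid cells, and S100a8, a calprotectin gene of neutrophils, were the highest of their lists.

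The summed level of the 10 genes was 1242 to 1345 FPKM in leukemic and 1494 to 1790 FPKM in preleukemic samples. With the marker genes of other cells left out of the TPM scaling, 5 of 10 genes were called lower, against 16.6% of all genes. That scaling changes only the divisor of each sample and does not remove RNA of other cells. The part of other cells in the differences was therefore not tested. In bulk samples fewer cells of a type and less RNA per cell cannot be told apart.

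BCP identity was checked by its own markers. The summed level of 15 BCP markers was 8257 to 10376 FPKM in preleukemic and 4278 to 6851 FPKM in leukemic samples. Of the 15, 2 were called lower, Vpreb1 and Igll1, which encode the surrogate light chain, against 6.26% of all genes. The log2 fold change was below 0 for 14 of the 15, with a median of -0.59, against -0.54 for the 10 transcription factor genes. At an unadjusted p under 0.05, 11 were lower and 0 higher, against 17.5% and 16.5% of all genes. For 9 of the 15 the leukemic range lay wholly below the preleukemic range, against 17.1% of all genes. Enpep, which encodes the BP-1 antigen of the sort and was singled out for that reason, had 134, 210.2, 179.6 and 191 FPKM in preleukemic replicates 1 to 4 and 19.1, 102 and 77.2 FPKM in leukemic replicates 1 to 3. Its groups did not overlap, and it was not called (limma adjusted p = 0.0688). Of 9 tested mature B-cell markers 2 were called higher, H2-Aa and H2-Ab1, class II antigen presentation genes, and 4 were below 0. Of 5 tested plasma cell markers 1 was called higher, Jchain, and 2 were below 0. Over all genes 8.47% were called higher. The sum of mature B-cell markers overlapped between the groups.

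**Figure D4:**
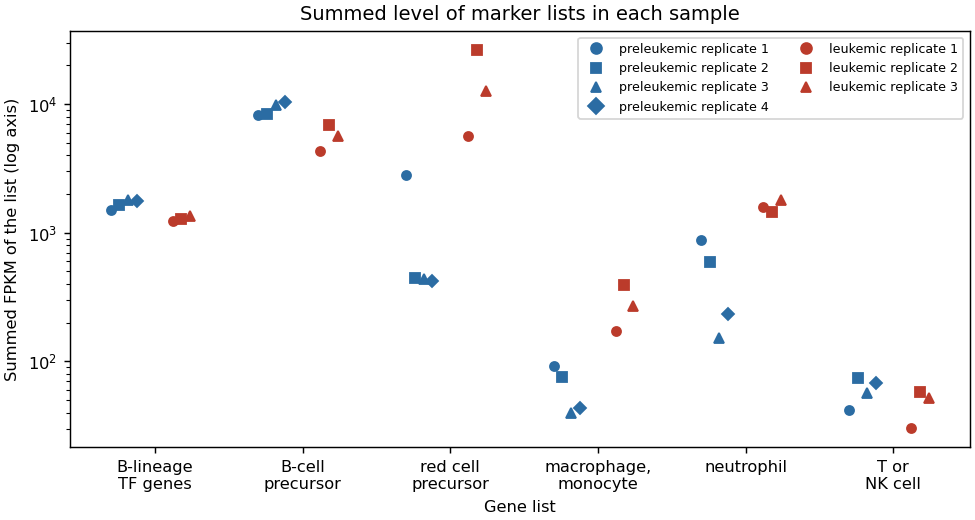
Summed FPKM (log axis) of the 10 B-lineage transcription factor genes and of 5 marker lists in each sample, with 1 symbol per replicate (blue preleukemic, red leukemic). Red cell precursor, macrophage and neutrophil sums are higher in all 3 leukemic samples, and preleukemic replicate 1 has the highest red cell sum of its group, 2796 FPKM.

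Genes that Pax5 is known to activate mostly had lower means in leukemic samples. Of 22 such genes, all tested, 18 had a log2 fold change below 0, with a median of -0.56. By limma 4 were called lower, Nedd9, Ccnd3, Siglecg and Cplx2, against 6.26% of all genes. None was called higher by limma, against 8.47% of all genes. At an unadjusted p under 0.05 the counts were 13 lower and 1 higher, against 17.5% and 16.5% of all genes. Ccnd3, the D-type cyclin of pre-B cells, had 402, 329, 399.6 and 379 FPKM in preleukemic replicates 1 to 4 and 206, 239.9 and 239 FPKM in leukemic replicates 1 to 3, without overlap (log2 fold change -0.72, limma adjusted p = 0.0109). Vpreb3, at 1925 ± 265 FPKM (SD, n = 4) and 1134 ± 359 FPKM (SD, n = 3), was not called (adjusted p = 0.0555). The count called lower was 8 without leukemic replicate 2 (7.12% of all genes) and 14 as TPM (21.2%). It was 2 without preleukemic replicate 2, 3 or 4 (1.4%, 0.674% and 0.398%) and 2 when scaled to Cd79a and Cd79b (1.03%).

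Of 22 genes that Pax5 is known to repress, 14 were tested, 0 were called lower and 6 higher, against 6.26% and 8.47% of all genes. A gene that is high in the leukemic group alone can pass the filter through that group, so the 6 are not a share of the list, and the count was 9 with no filter and 4 with a filter at an FPKM sum of 70. At an unadjusted p under 0.05 the counts were 2 lower and 6 higher, against 17.5% and 16.5% of all genes. The 6 called higher were Csf1r, Fcer1g and Tyrobp, receptor and adaptor genes of myeloid cells, Mpo, a granule enzyme gene, Lmo2, a hematopoietic adaptor gene, and Jchain, the joining chain of IgM and IgA. Of these, Csf1r is also a macrophage marker, Mpo a neutrophil marker and Jchain a plasma cell marker here. Lmo2, in none of those lists, had 29.1, 23.9, 20.2 and 18.1 FPKM in preleukemic replicates 1 to 4 and 89.5, 87.0 and 95.8 FPKM in leukemic replicates 1 to 3, a log2 fold change of 1.97 with a standard error of 0.16 (limma adjusted p = 0.0043). Lmo2 did not overlap between the groups. Being in none of those lists does not show that its transcripts came from BCP cells, and the part of other cells was not tested. Jchain had 20.8, 20.2, 22.2 and 18.6 FPKM against 81.5, 112 and 143 FPKM. Plac8 and Itgal, the other highest genes of the list, were not called. 

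Genes activated by Ebf1 or Foxo1 numbered 18, all tested, of which 13 were below 0 with a median of -0.47. Of these 3 were called lower by limma, Igll1, Vpreb1 and Blk, a Src family kinase gene of B cells, against 6.26% of all genes. None was called higher, against 8.47%. At an unadjusted p under 0.05 the counts were 11 lower and 1 higher, against 17.5% and 16.5% of all genes. Igll1 was at 1493 ± 129 FPKM (SD, n = 4) in preleukemic and 637 ± 282 FPKM (SD, n = 3) in leukemic samples (log2 fold change -1.32, limma adjusted p = 0.0244). Vpreb1 was at 1448 ± 136 and 558 ± 308 FPKM in the same groups. Rag1, the recombinase gene under Foxo1, had 124, 159.6, 157 and 165 FPKM in preleukemic replicates 1 to 4 and 22.9, 53.6 and 113 FPKM in leukemic replicates 1 to 3. It did not overlap and was not called (adjusted p = 0.0668), and it was chosen after its values were seen. The count called lower was 5 without leukemic replicate 2 or 3 (7.12% and 6.56% of all genes) and 10 as TPM (21.2%). It was 0 without preleukemic replicate 2, 3 or 4 (1.4%, 0.674% and 0.398%) and 4 when scaled to Cd79a and Cd79b (1.03%).

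**Figure D5:**
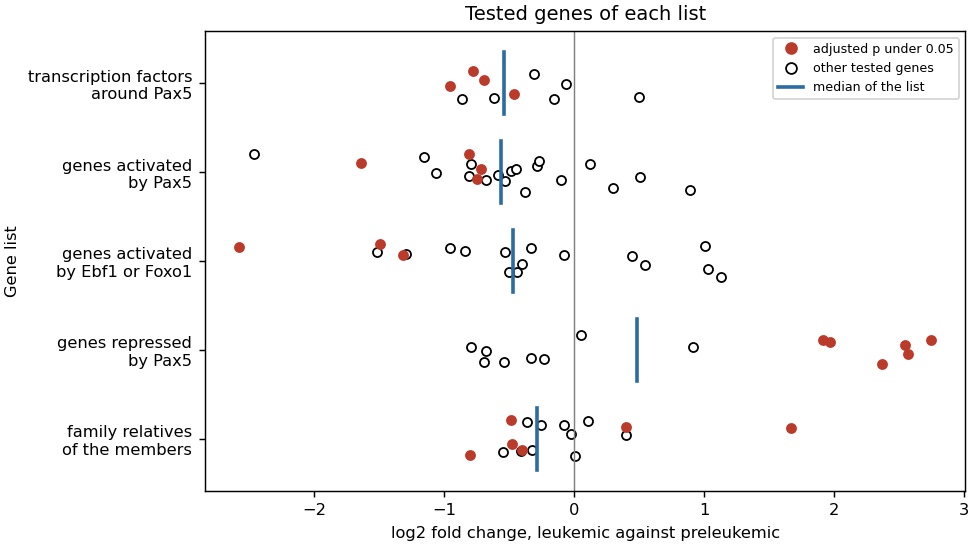
Log2 fold change, leukemic against preleukemic, of the tested genes of each list, with called genes in red, other genes open and the median of the list as a blue line (vertical scatter has no meaning). The medians are -0.54 for the transcription factor genes, -0.56 for genes activated by Pax5, -0.47 for genes activated by Ebf1 or Foxo1, and 0.48 for genes repressed by Pax5.

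Relatives of the 10 genes in the same families were mostly at low levels. Of 25 such genes 16 were tested, with a median log2 fold change of -0.29. By limma 4 were called lower (Bach1, Pou2f1, Irf5 and Tcf7l2) and 2 higher (Irf7 and Foxo4), against 6.26% and 8.47% of all genes. Among those that stayed below the filter were Pax2, Pax6, Pax8, Ebf2, Ebf3, Ebf4, Foxo6 and Bcl11b. Irf5, an interferon regulatory factor of myeloid and B cells, was at 61.5 ± 2.30 FPKM (SD, n = 4) and 46.3 ± 2.14 FPKM (SD, n = 3), a log2 fold change of -0.40 (limma adjusted p = 0.0171). Irf2, Irf3 and Irf1 were not called. Irf7, an interferon-induced factor, rose by 1.67 on the log2 scale, and Foxo4 by 0.40. The count of relatives called lower was 0 without preleukemic replicate 2, 3 or 4 (1.4%, 0.674% and 0.398% of all genes) and 0 when scaled to Cd79a and Cd79b (1.03%). That of relatives called higher was 0 without any 1 preleukemic replicate (1.02% to 5.8% of all genes) and 1 without any 1 leukemic replicate (6.75% to 8.25%).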

How the data were processed

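The authors sequenced RNA of BCP cells, sorted per the labels, and deposited 1 FPKM value per gene and sample. The processing notes name STAR 2.5.0b, Cufflinks 2.2.1, bedtools 2.17.0, Bowtie and DESeq2 on mm10, without their roles. FPKM is not a count, so the study's count model was replaced by limma 3.58.1 (R 4.3.3, with intensity trend, no covariates) on log2(FPKM + 1). Fold changes on this scale understate changes of low genes. Tested were genes whose FPKM summed to 10 or more over 7 samples. Depth was read from 244 to 313 low values per sample among 2243 single-transcript genes. The depth taken was that at which the largest share of them, 73.3% to 78.8%, were whole multiples of 1 fragment (tolerance 0.08). At a depth fixed in advance 16% would be whole by chance, and the share at a chosen best depth is expected to be larger. Counting errors cover counting alone. Replicates are separate samples per the labels, and p-values measure only their spread. The fit was tested on simulated data.

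Named were all 10 genes, at most the 4 highest genes of each list, and the 5 genes most like Pax5. Others are named where they were called, or were chosen after their values were seen. Not every gene the rule names is given singly. The 10 genes, the lists and the motifs were chosen with earlier results of these data known. Alternatives were another pseudocount, other filters, quantile and TPM scaling, scaling to Cd79a and Cd79b, no trend, a replicate block and leaving out each sample. Sequences are from RefSeq (GRCm38.p6). Ighd, Ahsp and Trac were not analysed here. Python 3.11.15, numpy 2.4.6, pandas 2.3.3 and matplotlib 3.10.9 were used.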

Additional observations from a re-analysis of the deposited data

How the results depend on the processing

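Scaled to Cd79a and Cd79b, which moved the median of all genes to 0.44, the log2 fold changes of Pou2af1, Irf4, Myb and Bcl11a reversed to 0.30, 0.15, 0.00038 and 0.40. All of them were still below that median. Called lower were 0 of the 10, 2 genes activated by Pax5, 4 activated by Ebf1 or Foxo1 and 0 relatives, against 1.03% of all genes. Called higher were 7 genes repressed by Pax5 and 3 relatives, against 25.3% of all genes. Genes activated by Pax5 called lower numbered 10 under quantile normalization, 14 as TPM and 12 as TPM without marker genes of other cells. For genes activated by Ebf1 or Foxo1 the counts were 5, 10 and 9. Of all genes 8.6%, 21.2% and 16.6% were called lower under these scalings. Relatives called lower were 2 with a filter at an FPKM sum of 70, and relatives called higher were 1 with no filter, 1 as TPM and 1 as TPM without marker genes. Leaving out 1 sample gave 1 to 4 of the 10 genes lower and 0 to 1 higher. Called lower were 2 to 8 genes activated by Pax5, 0 to 5 activated by Ebf1 or Foxo1 and 0 to 5 relatives. Called higher were 4 to 6 genes repressed by Pax5 and 0 to 1 relatives. Of all genes these fits called 0.398% to 7.12% lower and 1.02% to 8.25% higher. The difference of the log2 ratio of Pax5 to Ebf1 then ranged from -0.15 to 0.0081, reversed without leukemic replicate 2, where Bcl11a also reversed (range -0.23 to 0.12), and that of Irf4 to Irf8 from -1.38 to -0.26. The cause of these shifts was not tested.

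The replicate numbers did not pair the samples (correlations of same-numbered samples 0.029, 0.050 and -0.092). With the number as a replicate block, limma called 0 of 10541 genes, hence 0 of the 10, 0 activated or repressed by Pax5, 0 activated by Ebf1 or Foxo1 and 0 relatives, lower or higher; 5 of the 10 genes were lower at an unadjusted p under 0.05, against 10.6% of all genes. Small groups limit all values, and counting error adds to this at low FPKM, as for Bach2.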
